A study of Mus musculus with 4 samples.

Results

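The T cell receptor signalling core was read from 10 genes of the 24421 in the count tables: the CD3 chains Cd3d, Cd3e, Cd3g and Cd247, the coreceptor genes Cd4, Cd8a and Cd8b1, the kinases Lck and Zap70, and the adaptor Lat. They were taken by name, as the rows carrying these 10 symbols, with no threshold on a measured value. The samples were subcutaneous tumors of J558, a single plasmacytoma line of BALB/c origin that the labels call a B lymphocyte, grown in immunocompetent female BALB/c mice and harvested on day 6. Vehicle mice (n = 2) received 0.5% methylcellulose by mouth and TAK-931 mice (n = 2) received 60 mg/kg TAK-931, an inhibitor of the replication kinase CDC7, once daily. RNA came from the whole tumor, so each library (Vehicle-1, Vehicle-2, TAK-931-1 and TAK-931-2) held J558 RNA together with that of host cells. In such bulk samples, fewer cells of a type and less RNA per cell cannot be told apart.

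A T cell recognises antigen through a clonotypic receptor that has no signalling tail of its own. The CD3 gamma, delta, epsilon and zeta chains supply that tail, CD4 or CD8 binds the MHC molecule and brings LCK to the complex, LCK phosphorylates the CD3 chains, and ZAP70 then docks and phosphorylates the scaffold LAT. In tumors, CD8 marks mainly cytotoxic T cells and CD4 mainly helper and regulatory T cells, while mouse dendritic cell subsets can also carry CD4 or CD8 alpha homodimers, and NK cells use CD3 zeta, LCK, ZAP70 and LAT without the other CD3 chains at their surface. The constant-region genes of the clonotypic chains were not analysed here.

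Library totals ran from 16487902 to 19589339 counts, and 15216 to 16270 genes had a count. The TAK-931 pair was less alike (Pearson's r = 0.865 across 13669 genes) than the vehicle pair (r = 0.977), and TAK-931-2 correlated with Vehicle-1 at r = 0.950 and with Vehicle-2 at r = 0.939. The values are therefore given for each TAK-931 library beside the fitted comparison. The plasma cell genes that define J558 were abundant, with 59538 to 139237 counts of Jchain, the joining chain of polymeric antibody, per library. Of the B cell list, Cd79b (1405 to 3485 counts) and Ms4a1 (252 to 904 counts) were counted in every library, while Pax5 had no count in any.

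Several of the 10 genes sit close together on the mouse genome (build GRCm38). Cd3g (chr9:44969572-44980431, minus strand) and Cd3d (chr9:44981786-44987052, plus strand) point away from each other with 1355 bases between them, and Cd3e (chr9:44998743-45009590, minus strand) follows, so that all 3 lie within 40019 bases. Cd8b1 (chr6:71322812-71337451, plus strand) and Cd8a (chr6:71373427-71379171, plus strand) lie within 56360 bases on chromosome 6, which also holds Cd4 (chr6:124864693-124888209, minus strand). Cd247 (chr1:165788681-165871153, plus strand) and Zap70 (chr1:36761798-36782820, plus strand) are on chromosome 1, Lck (chr4:129548344-129573641, minus strand) on chromosome 4 and Lat (chr7:126363828-126369534, minus strand) on chromosome 7. Exon bases were shared with another annotated gene by Cd247 (Pou2f1) and by Lck (Mir8119), and by none of the other members, so reads there could belong to either gene.

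RefSeq promoter sequences (GRCm38.p6, from 250 bases before to 50 bases after a start site) were found for 8 of the 10 genes. Those of the chromosome 9 cluster and of Cd8a, the gene with the largest fold difference of the 10, are shown because Cd3d, Cd3e and Cd3g are neighbours and all 4 genes were higher in both TAK-931 libraries than in both vehicle libraries. Capitals mark GGAAG, the core letters that ETS factors bind, and CACCTG, an E-protein E-box, on either strand (CTTCC and CAGGTG when read from the other strand). No TGTGGT (RUNX core, or ACCACA on the other strand) occurred in these 4 windows.
Cd3d promoter, chr9:44981536-44981835, plus strand: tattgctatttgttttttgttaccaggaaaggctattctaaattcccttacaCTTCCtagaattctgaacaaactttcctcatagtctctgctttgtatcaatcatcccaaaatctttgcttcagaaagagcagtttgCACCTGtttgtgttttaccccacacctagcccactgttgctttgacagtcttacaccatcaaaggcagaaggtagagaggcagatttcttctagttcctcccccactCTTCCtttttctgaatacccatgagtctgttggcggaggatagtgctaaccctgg
Cd3e promoter, chr9:45009562-45009861, minus strand: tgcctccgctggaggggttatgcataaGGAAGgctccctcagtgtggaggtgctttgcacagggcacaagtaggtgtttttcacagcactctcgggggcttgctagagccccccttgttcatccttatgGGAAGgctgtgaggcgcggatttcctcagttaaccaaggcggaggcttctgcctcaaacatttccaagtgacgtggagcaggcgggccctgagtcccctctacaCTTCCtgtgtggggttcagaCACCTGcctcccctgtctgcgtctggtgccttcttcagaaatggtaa
Cd3g promoter, chr9:44980382-44980681, minus strand: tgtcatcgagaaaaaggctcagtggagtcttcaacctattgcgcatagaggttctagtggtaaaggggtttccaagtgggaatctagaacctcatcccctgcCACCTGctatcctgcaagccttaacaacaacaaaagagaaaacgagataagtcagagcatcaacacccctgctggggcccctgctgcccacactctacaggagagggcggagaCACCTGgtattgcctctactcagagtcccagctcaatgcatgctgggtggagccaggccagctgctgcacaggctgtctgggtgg
Cd8a promoter, chr6:71373177-71373476, plus strand: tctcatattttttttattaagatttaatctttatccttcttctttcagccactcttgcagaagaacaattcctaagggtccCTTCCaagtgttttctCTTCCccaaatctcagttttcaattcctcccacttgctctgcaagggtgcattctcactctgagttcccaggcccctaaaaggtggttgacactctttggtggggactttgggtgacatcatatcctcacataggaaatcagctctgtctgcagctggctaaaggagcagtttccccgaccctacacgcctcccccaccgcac

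CACCTG was present in 6 of the 8 genes with a promoter entry (Cd3d, Cd3e, Cd3g, Cd247, Lck and Zap70), against 20.2% of 32851 mouse promoters of the same length. GGAAG was present in 7 of 8, all but Cd3g, against 71.4% of all promoters, and TGTGGT in 2 of 8 (Lck and Lat), against 16.8%. Lck and Zap70 have more than 1 promoter entry, and only the entry nearest the start of the gene was counted. Another Zap70 entry held TGTGGT, which is not in the count above. These matches describe letters in a window and are not binding sites.

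The first question was how much RNA of the receptor chains each tumor held. All 4 CD3 chain genes were sparse in vehicle tumors, were highest in TAK-931-1 and lay between in TAK-931-2. Levels are given as CPM, counts scaled by TMM to a common library size, where 3 counts correspond to 0.158 to 0.180 CPM.

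Cd3e, which encodes the epsilon chain shared by both CD3 heterodimers, had 32 counts in Vehicle-1 and 6 in Vehicle-2. The TAK-931 libraries had 2584 (TAK-931-1) and 132 (TAK-931-2). Scaled, these were 1.90, 0.360, 136 and 7.70 CPM, or 1.13 ± 1.09 CPM in vehicle and 71.9 ± 90.8 CPM in TAK-931 tumors (mean ± SD, n = 2 each). Both TAK-931 libraries were above both vehicle libraries, and the SD of the TAK-931 pair exceeded its mean.

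Cd3g, the gamma chain gene, had 44, 2, 4042 and 221 counts in Vehicle-1, Vehicle-2, TAK-931-1 and TAK-931-2, which were 2.61, 0.120, 213 and 12.9 CPM. Cd3d, the delta chain gene, had 12, 20, 1744 and 74 counts in the same order (0.712, 1.20, 91.9 and 4.32 CPM). Cd3d was the only CD3 gene with a smaller value in Vehicle-1 than in Vehicle-2, while Cd3g had 2 counts in Vehicle-2, under the 3-count floor.

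Cd247 encodes the zeta chain, which carries more phosphorylation motifs than any other subunit and also serves NK cell receptors. Its counts were 38 and 6 in the vehicle libraries and 1704 and 100 in the TAK-931 libraries (2.25, 0.360, 89.8 and 5.83 CPM). Against the vehicle mean, TAK-931-1 had 68.7-fold (Cd247) to 156-fold (Cd3g) and TAK-931-2 had 4.47-fold (Cd247) to 9.45-fold (Cd3g) the level of the CD3 genes. For Cd3g the vehicle mean rests on Vehicle-1, since Vehicle-2 was under the floor.

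The coreceptor genes separated from each other. Cd8a, the alpha chain present in every CD8 dimer, had 29 and 2 counts in the vehicle libraries and 5971 and 234 in the TAK-931 libraries (1.72, 0.120, 315 and 13.7 CPM). It had the highest CPM of the 10 genes in TAK-931-1, and its 342-fold and 14.8-fold excess over the vehicle mean was the largest of the 10 in each TAK-931 library. Its Vehicle-2 value was also under the floor.

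Cd8b1 encodes the beta chain, which conventional cytotoxic T cells pair with the alpha chain. It had 32, 12, 3333 and 63 counts (1.90, 0.719, 176 and 3.68 CPM), and TAK-931-1 was 134-fold above the vehicle mean where TAK-931-2 was 2.81-fold above it. In TAK-931-2 it stood only 1.94-fold above the higher vehicle library, the smallest such margin of the 10, against 7.94-fold for Cd8a.

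Cd4 gave 30, 58, 809 and 132 counts (1.78, 3.48, 42.6 and 7.70 CPM). Its group values were 2.63 ± 1.20 CPM in vehicle and 25.2 ± 24.7 CPM in TAK-931 tumors (mean ± SD, n = 2 each). TAK-931-1 was 16.2-fold above the vehicle mean, the smallest ratio of the 10 genes in that library, and TAK-931-2 was 2.93-fold above it. The gap between the TAK-931 libraries was also smallest for Cd4, at 5.53-fold, and largest for Cd8b1, at 47.8-fold.

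Lck encodes the Src-family kinase bound to the coreceptor tails. It was the best counted of the 10 in vehicle tumors, with 95 and 76 counts, and the TAK-931 libraries had 3227 and 388 (5.63, 4.56, 170 and 22.6 CPM). The vehicle mean was 5.09 ± 0.762 CPM (SD, n = 2), and the vehicle libraries differed by 1.24-fold with a 95% interval for counting error of 0.905 to 1.69.

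Zap70, the kinase that binds phosphorylated CD3 chains, had 30, 4, 1129 and 129 counts (1.78, 0.240, 59.5 and 7.53 CPM). Lat, the membrane scaffold on which ZAP70 assembles the downstream enzymes, had 23, 4, 1152 and 97 (1.36, 0.240, 60.7 and 5.66 CPM). Their levels in TAK-931-1 were 33.4-fold (Lck), 58.9-fold (Zap70) and 75.7-fold (Lat) the vehicle mean, and those in TAK-931-2 were 4.44-fold, 7.46-fold and 7.06-fold that mean.

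**Figure D1:**
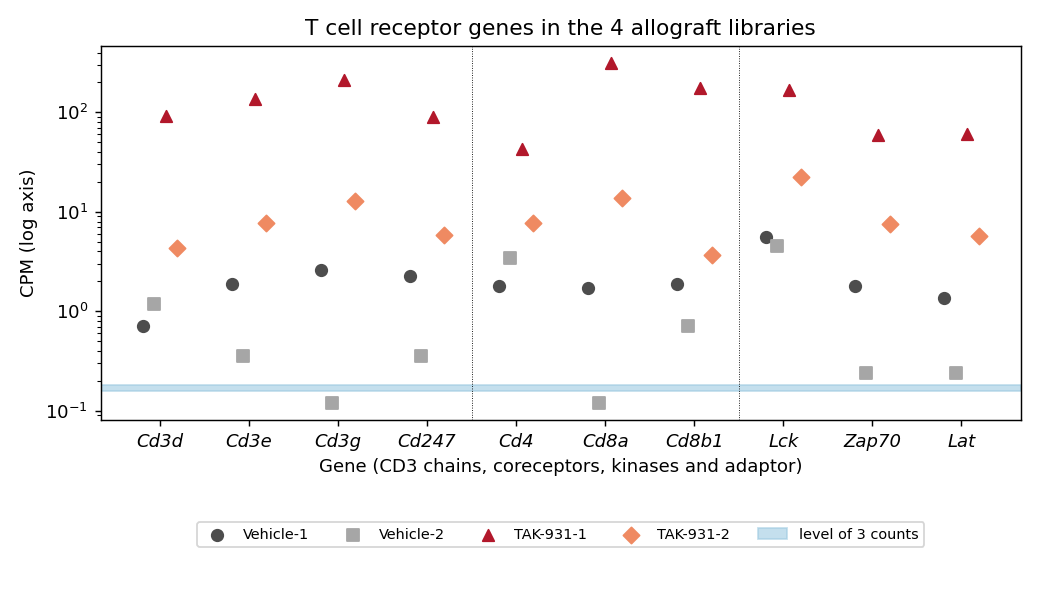
Level of each receptor gene in the 4 libraries, in CPM on a log axis, with 1 point per library and a band at the level of 3 counts. Both TAK-931 points lie above both vehicle points for all 10 genes, TAK-931-1 lies highest throughout, and the Vehicle-2 points of Cd3g and Cd8a lie under the band.

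All 10 genes were higher in each TAK-931 library than in each vehicle library, a pattern held by 30% of the 13669 genes tested (TAK-931-1 was above both vehicle libraries for 46.1% of genes and TAK-931-2 for 42.3%). The sum of the 10 was 21.6 and 11.4 CPM in the vehicle libraries and 1354 and 91.6 CPM in the TAK-931 libraries, which is 82.0-fold and 5.55-fold the vehicle mean. TAK-931-1 exceeded TAK-931-2 for 10 of 10 genes, where 50.4% of all genes did so. Vehicle-1 exceeded Vehicle-2 for 8 of 10, against 48.8% of all genes, and the exceptions were Cd3d and Cd4.

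The vehicle tumors themselves differed. Cd3g was 21.8-fold higher in Vehicle-1 than in Vehicle-2 (95% interval for counting error 5.68 to 185) and Cd8a was 14.3-fold higher (3.63 to 124), whereas Cd4 was lower in Vehicle-1 at a ratio of 0.512. With counts halved, as if read pairs were counted once, the intervals were 3.52 to 898 for Cd3g and 2.11 to 586 for Cd8a. The counts of fewer than 10 in Vehicle-2 for Cd3e, Cd3g, Cd247, Cd8a, Zap70 and Lat leave their vehicle level loosely fixed. The 4 genes with at least 10 counts in every library were Cd3d, Cd4, Cd8b1 and Lck.

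The fitted comparison of TAK-931 with vehicle tumors used edgeR's quasi-likelihood test across all genes. The log2 fold change was 7.47 (SE 2.13) for Cd8a, 6.36 (2.01) for Cd3g, 6.09 (2.06) for Cd8b1, 5.98 (1.78) for Cd3e, 5.64 (1.68) for Cd3d, 5.36 (1.58) for Lat, 5.18 (1.72) for Cd247, 5.04 (1.51) for Zap70, 4.24 (1.09) for Lck and 3.26 (1.00) for Cd4. Of these values 8 exceeded 5, but neighbours in the order lay within 1 SE of each other. Their median was 5.50, beside 0.02 over all genes tested, and 8 of the 10 ranked among the 100 largest log2 fold changes, the exceptions being Lck and Cd4. Of the 10 genes, 6 had under 10 counts in a vehicle library and passed the count filter through the TAK-931 libraries, so these medians and ranks, and the counts of the 10 at a p threshold that follow, are descriptions.

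None of the 10 genes, and none of the 13669 tested, passed an adjusted p of 0.05 in edgeR (0% called). Each of the 10 had the same Benjamini-Hochberg adjusted p from edgeR, 0.275, which was also the lowest of any gene. All 10 had an unadjusted edgeR p under 0.05, as did 11.6% of all genes in that direction. DESeq2 called all 10 and 9.21% of all genes as higher, and limma-voom called none of the 10 and 0% of all genes. With 2 mice a group, an exact permutation test of a single gene cannot give a two-sided p below 0.333. Each fitted log2 fold change was about 3 to 4 times its SE, and it was the adjustment over all genes in edgeR that none of the 10 passed. For every member but Cd3g, the TAK-931 libraries differed from each other by a larger ratio than the vehicle libraries did.

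Read one library at a time, all 10 genes passed a log2 ratio of 1.5 over the vehicle mean in TAK-931-1 (21.8% of all genes did so). For TAK-931-2 all 10 passed it as well, against 6.61% of all genes. For TAK-931-1 the median log2 ratio of the 10 was 6.44 and for TAK-931-2 it was 2.74, beside -0.02 and -0.01 for all genes. Over all genes, the 95th percentile of that ratio was 3.60 for TAK-931-1 and 1.72 for TAK-931-2. Cd4 was the member nearest to this percentile in TAK-931-1, and in TAK-931-2 Cd8b1 and Cd4 fell under it, with log2 ratios of 1.55 and 1.58.

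**Figure D2:**
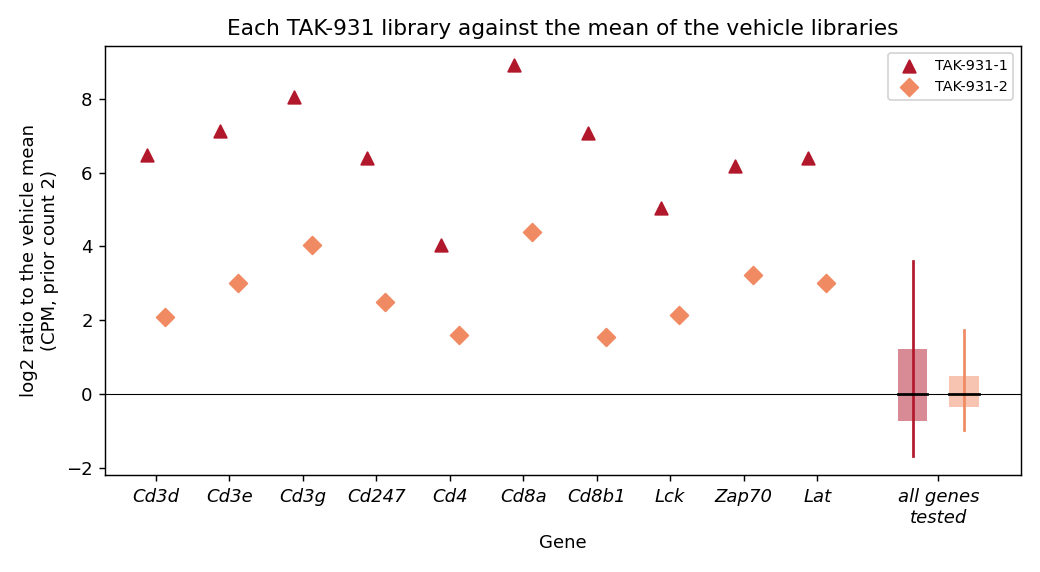
log2 ratio of each TAK-931 library to the mean of the vehicle libraries (CPM, prior count 2) for the 10 genes, with the median, the middle 50% (box) and the 5th to 95th percentile (line) of all 13669 genes at the right. TAK-931-1 (triangles) lies above TAK-931-2 (diamonds) for every gene, and all points lie above 1.5.

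Leaving out TAK-931-1 moved the median log2 fold change of the 10 most, from 5.50 to 2.46, and single genes ran from 1.48 (Cd8b1) to 3.87 (Cd8a). In that fit the lone TAK-931 library was assumed to vary like the vehicle pair, and edgeR called 5 of the 10 at an adjusted p of 0.05, beside 12.6% of all genes called as higher. Without TAK-931-2, under the same assumption, it called all 10, beside 28.2% of all genes. With Vehicle-1 left out the median was 7.03, the Cd8a value was 10.32 and the Cd3g value was 9.78, a larger move for Cd3g than without TAK-931-1 (3.23).

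Which coreceptor the tumors carried can be read within a library, where scaling between libraries plays no role. Cd8a made up 49.2% of Cd8a plus Cd4 counts in Vehicle-1 (exact 95% interval 35.9 to 62.5) and 3.33% in Vehicle-2 (0.406 to 11.5). For TAK-931-1 the share was 88.1% (87.3 to 88.8) and for TAK-931-2 it was 63.9% (58.8 to 68.9). Both TAK-931 shares were above both vehicle shares, and the intervals of Vehicle-1 and TAK-931-2 overlapped. The vehicle shares rest on 59 and 60 counts, and intervals cover counting error only.

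Adding Cd8b1 to the Cd8a side gave 67.0%, 19.4%, 92.0% and 69.2% in the same order, so that Vehicle-1 and TAK-931-2 then stood close together. With counts divided by exon length these shares were 76.7%, 32.7%, 94.2% and 73.7%, and TAK-931-2 was then under Vehicle-1. The make-up of the CD8 genes differed too: Cd8b1 was 52.5% of Cd8a plus Cd8b1 counts in Vehicle-1 (39.3 to 65.4), while TAK-931-1 gave 35.8% (34.8 to 36.8) and TAK-931-2 gave 21.2% (16.7 to 26.3). In Vehicle-2 the 85.7% share rests on 14 counts (57.2 to 98.2). TAK-931-2 thus had less Cd8b1 for its Cd8a than TAK-931-1, with intervals apart. Per exon length the Cd8b1 shares were 70.9%, 93.0%, 55.2% and 37.3% in Vehicle-1, Vehicle-2, TAK-931-1 and TAK-931-2, in the same order of libraries.

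Comparing genes with each other needs a level per length, so CPM was divided by summed exon length in kilobases (FPKM). On that scale Cd3g led Vehicle-1 (2.55), TAK-931-1 (208) and TAK-931-2 (12.6), while Lck led in Vehicle-2 (1.98). In TAK-931-1 the order went on with Cd8b1 (124), Cd8a (100.5), Cd3e (94.8), Lck (74.0) and Cd3d (69.1), and Cd4 was lowest at 13.8 FPKM. In TAK-931-2 Lck (9.85) and Cd3e (5.36) followed Cd3g, and Cd247 was lowest at 1.27. Vehicle-2 differed from the other libraries in that Cd4 (1.12) ranked directly under Lck and Cd8a (0.0383) ranked last.

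The pan-leukocyte phosphatase Ptprc (CD45) gives a denominator for leukocyte RNA as a whole. It had 618, 347, 12013 and 2187 counts, with a log2 fold change of 3.73 and levels 22.0-fold (TAK-931-1) and 4.44-fold (TAK-931-2) the vehicle mean. Per unit of Ptprc, the summed FPKM of the 4 CD3 chains was 0.757 and 0.367 in the vehicle libraries and 3.51 and 0.998 in the TAK-931 libraries. The corresponding ratio for Cd8a was 0.0849, 0.0104, 0.900 and 0.194. Both ratios were higher in each TAK-931 library than in each vehicle library, and the CD3 margin between TAK-931-2 and Vehicle-1 was small.

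Cd4 and Lck did not follow that order. Cd4 per unit of Ptprc was 0.0889, 0.306, 0.123 and 0.110, highest in Vehicle-2, and Lck per unit of Ptprc was 0.379, 0.540, 0.662 and 0.437, with the vehicle and TAK-931 libraries interleaved. Zap70 (0.101, 0.0240, 0.196 and 0.123) and Lat (0.171, 0.0529, 0.440 and 0.204) were higher in both TAK-931 libraries. Cd8b1 per unit of Ptprc was 0.207, 0.138, 1.11 and 0.115, lowest in TAK-931-2.

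Ratios to Cd3e set the other members against a gene of T cells proper. Lck stood at 1.86 and 7.92 times Cd3e in the vehicle libraries and at 0.780 and 1.84 times in the TAK-931 libraries. Vehicle-1 and TAK-931-2 were nearly the same for this ratio, for Zap70 (0.495 and 0.516), for Lat (0.836 and 0.855) and for Cd4 (0.435 and 0.464). They were further apart for Cd8a (0.416 and 0.813), Cd247 (0.370 and 0.236) and, relative to Cd8a, for Cd8b1 (2.44 and 0.595). Ncr1, the NK cell receptor NKp46, was 1.41, 0.982 and 1.11 times Cd3e in Vehicle-1, Vehicle-2 and TAK-931-2, but 0.0813 times in TAK-931-1.

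**Figure D3:**
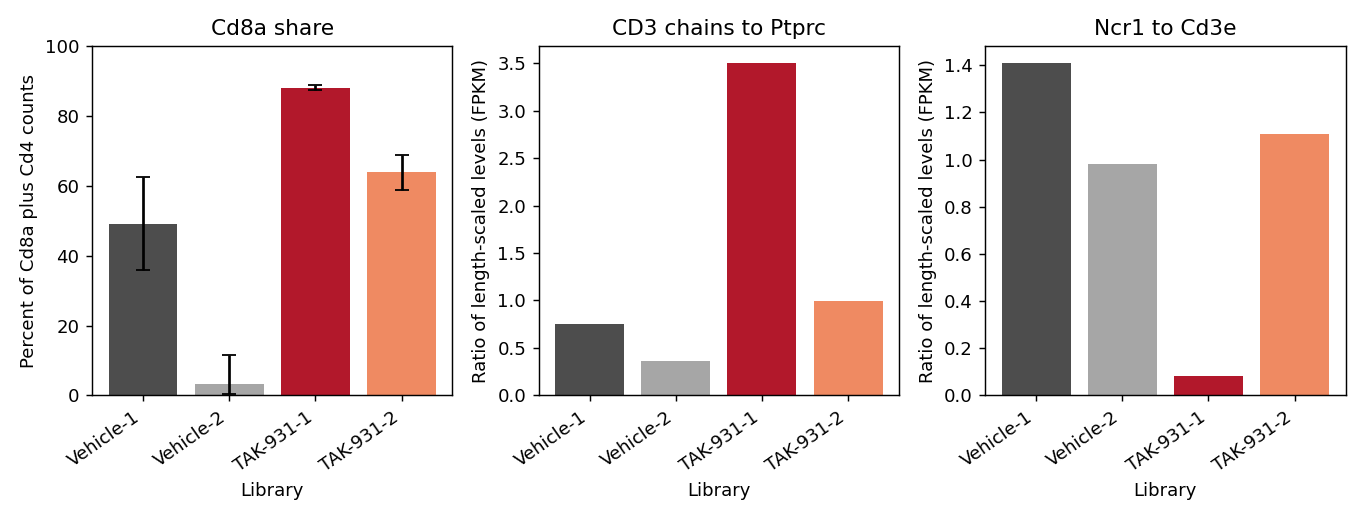
Left, Cd8a as a percent of Cd8a plus Cd4 counts per library with exact 95% intervals. Middle, summed FPKM of the 4 CD3 chains divided by that of Ptprc. Right, Ncr1 divided by Cd3e, both in FPKM, with 6 counts of each in Vehicle-2. Bars are single libraries: TAK-931-1 is highest in the first 2 panels and far lowest in the last, and TAK-931-2 is closer to a vehicle library than to TAK-931-1 in each.

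Around these 10 genes, a list of 49 other genes of T cell receptor signalling was followed, of which 48 were tested (Trat1 had 0, 0, 8 and 4 counts). None passed an adjusted p of 0.05 in edgeR or limma-voom, 29 had an unadjusted edgeR p under 0.05 as higher (11.6% of all genes did) and none as lower, and DESeq2 called 24 as higher (9.21% of all genes). Since 8 of the 48 had under 10 counts in a vehicle library and 7 of these were among the 29, such counts are descriptions. In both TAK-931 libraries 37 of the 48 lay above both vehicle libraries (30% of all genes did), and 2 (Bcl10 and Csk) lay below both (32.7% of all genes). The median log2 fold change was 1.51, with a range from -0.35 to 6.45, and it was 0.86 without TAK-931-1. Per library, the median of the log2 ratios over vehicle was 1.96 for TAK-931-1 and 0.86 for TAK-931-2.

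The 5 highest were Themis (log2 fold change 6.45, 12, 2, 1360 and 40 counts), which sets signal strength in developing T cells, the adaptor Sh2d2a (5.57, 32, 12, 2166 and 188), the transmembrane adaptor Sit1 (5.54, 2, 0, 102 and 14), the SLAM adaptor Sh2d1a (5.43, 12, 0, 553 and 36) and the adhesion adaptor Skap1 (4.68, 12, 18, 818 and 55). Their vehicle means were 0.0593 to 1.31 CPM, in or under the range of the receptor genes. For Sit1 and Sh2d1a, with no count in Vehicle-2, the vehicle level rests on the 2 and 12 counts in Vehicle-1.

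At the other end, Cd6 (-0.02), a T cell costimulator, the RAS activator Sos1 (-0.04), the NF-kappaB adaptor Bcl10 (-0.15), the kinase Tec (-0.18) and Csk (-0.35), the kinase that holds LCK inactive, had vehicle means of 32.9 to 399 CPM. Several signalling genes were therefore already well counted in vehicle tumors, where the receptor genes were not. Cd28, the main costimulatory receptor, is a further case, with 633, 637, 1341 and 1137 counts and a log2 fold change of 0.86, and it was named after its values were seen. Only 16 of the 48 exceeded Cd4, the lowest of the 10.

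**Figure D4:**
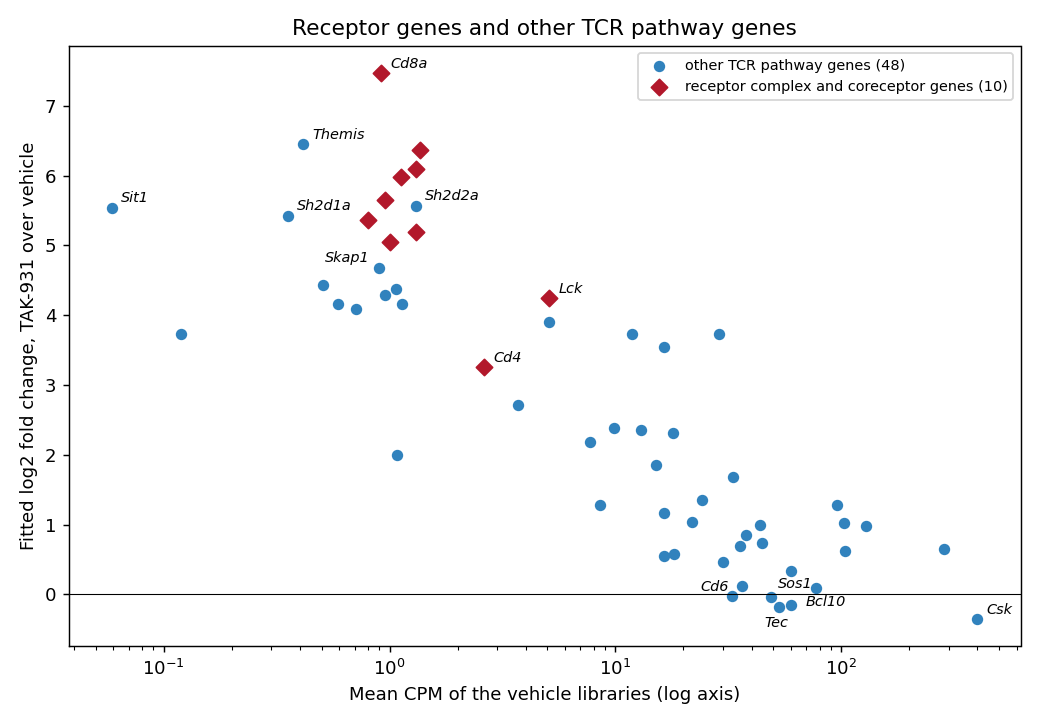
Fitted log2 fold change (TAK-931 over vehicle) against the mean vehicle level in CPM (log axis) for the 10 receptor genes (diamonds) and 48 other pathway genes (circles), with the 5 highest, the 5 lowest and 3 members named. The receptor genes cluster at low vehicle level and high fold change, and genes above 30 CPM in vehicle lie between -0.35 and 1.68.

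Markers of other cells were set beside the receptor genes. The T cell lineage list (16 genes, 15 tested, 9 of them also in the pathway list) summed to 143 and 144 CPM in the vehicle libraries and 1148 and 221 CPM in the TAK-931 libraries, and 13 of its tested genes lay above both vehicle libraries, as did 30% of all genes. The median log2 fold change of its tested genes was 4.37, with a range from -0.02 (Cd6) to 6.46 (Lef1). Its 7 genes outside the pathway list (Thy1, Tcf7, Lef1, Bcl11b, Icos, Cd27 and Il7r) were all above both vehicle libraries, with a median log2 fold change of 5.69, or 2.31 without TAK-931-1. Of these 7, 5 had under 10 counts in a vehicle library, so this too is a description. A list of cytotoxic effector genes (Gzmb, Gzmk, Nkg7, Prf1, Ifng and Ccl5) summed to 31.1, 6.47, 1037 and 125.5 CPM, with 6 of 6 above both vehicle libraries. Prf1 is also in the NK cell list, and which cells supplied this RNA was not tested.

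NK cell, macrophage and dendritic cell lists were highest in TAK-931-1, followed by TAK-931-2, Vehicle-1 and Vehicle-2. NK cell genes summed to 99.9, 59.2, 1221 and 230.5 CPM (11 of 12 tested above both vehicle libraries, against 30% of all genes), monocyte and macrophage genes to 719, 591, 9994 and 1846 (13 of 13), and dendritic cell genes to 145, 129, 701 and 227 (11 of 12). The largest NK list values in TAK-931-1 were Tyrobp (425 CPM) and Fcgr3 (257 CPM). Ncr1 was 2.73, 0.360, 11.3 and 8.69 CPM in Vehicle-1, Vehicle-2, TAK-931-1 and TAK-931-2. Bst2 was the largest of the dendritic cell list, at 110, 98.8, 347 and 151 CPM in that order. Flt3, its gene not above both vehicle libraries, was 7.06, 6.77, 7.22 and 5.37 CPM. Which cells supplied these sums was not tested. In TAK-931-1 the macrophage and NK cell sums were each 15.3-fold the vehicle mean, beside 82.0-fold for the 10 receptor genes. The T cell lineage sum was 7.99-fold, under the macrophage sum, and the dendritic cell sum 5.12-fold. In TAK-931-2 the folds were 2.82 (macrophage), 2.90 (NK cell), 5.55 (receptor genes), 1.54 (T cell lineage) and 1.66 (dendritic cell). For the cytotoxic effector list the folds were 55.2 (TAK-931-1) and 6.69 (TAK-931-2), but they rest on which vehicle library is used. Over Vehicle-1 alone they were 33.4 and 4.04, beside 62.5 and 4.23 for the receptor genes, and over Vehicle-2 alone they were 160.1 and 19.4, beside 119 and 8.04. Mast cell genes (4.98, 6.83, 64.8 and 9.28 CPM, 3 of 5 above) and platelet genes (9.78, 15.5, 42.0 and 18.4, 2 of 4) were low, and Treml1 of the platelet list had no count in any library.

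Plasma cell genes, which mark J558, summed to 9717 and 10286 CPM in the vehicle libraries and 4801 and 13646 CPM in the TAK-931 libraries, with 0 of 8 above and 3 of 8 (Xbp1, Sdc1 and Mzb1) below both vehicle libraries, where 32.7% of all genes lay below. B cell genes summed to 202, 244, 131 and 239 CPM, with 1 of 4 tested above. The library with the highest receptor genes thus had the lowest plasma cell sum, at 0.480 of the vehicle mean, while TAK-931-2 had 1.36 times the vehicle mean with receptor genes above vehicle. Jchain was the largest part of the TAK-931-2 sum, at 8124 CPM against a vehicle mean of 5369. In TAK-931-2, 5 of the 8 plasma cell genes were above both vehicle libraries. The part that this balance of J558 and host RNA, or the macrophage and NK cell genes, had in the receptor gene values was not tested.

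**Figure D5:**
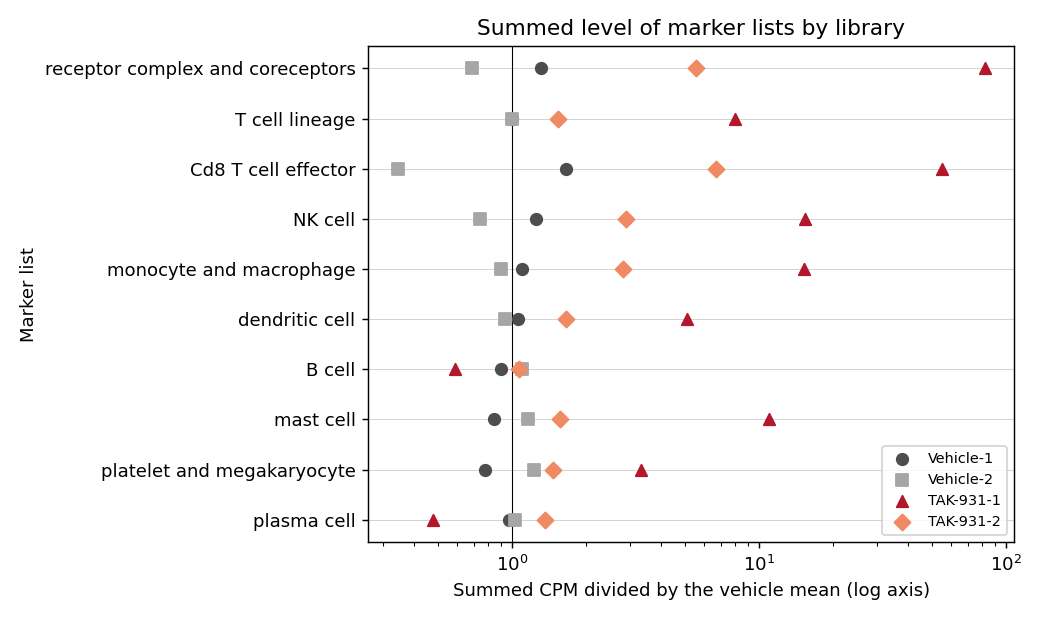
Summed CPM of each marker list in each library, divided by the mean of the vehicle libraries, on a log axis. The sum of the 10 receptor genes reaches 82.0 (TAK-931-1) and 5.55 (TAK-931-2). The cytotoxic effector list, labelled Cd8 T cell effector, reaches 55.2 and 6.69, and only the plasma cell and B cell lists lie under 1 in TAK-931-1.

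Finally, the genes whose profile over the 4 libraries was most like the median profile of the 10 were sought among 12743 genes with a mean log2 CPM over 0. Closest were Gzmb (granzyme B; root-mean-square difference 0.163 on the log2 CPM scale), Cd27 (a costimulatory receptor, 0.181), Ms4a4b (0.198), Bcl11b (a T lineage transcription factor, 0.222) and Cd96 (0.236). Nkg7 (a cytotoxic granule protein, 0.260), Klrd1 (CD94, 0.268), Gm15056 (0.279), Sh2d2a (0.279) and Klrc1 (NKG2A, 0.288) completed the 10. Gzmb had 126, 28, 6263 and 509 counts, the same order of libraries as Cd3e. The 4 libraries are few for such a likeness, and it is given as a description.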

How the data were processed

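RNA-seq counts of 4 J558 allografts (2 vehicle, 2 TAK-931) were used. Per the submitters' processing notes, reads were aligned with STAR 2.6.1c to mm10 and counted per gene with featureCounts. The authors deposited unnormalized counts per gene, and the strand setting is not given in the sources used here. Odd values made up 17.9% to 23.9% of counts between 1 and 20, as when both mates of a pair are counted, so counting intervals would be wider if pairs were counted once. The tables hold 24421 genes.

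From the counts, 13669 genes passed filterByExpr (minimum count 10) and were tested with edgeR 4.0.16 (TMM, robust quasi-likelihood fit, two-sided, Benjamini-Hochberg threshold 0.05) in R 4.3.3. DESeq2 1.42.0, limma-voom 3.58.1, other scalings and filters, halved counts, a replicate block and leaving out each library were alternatives. The code was tested on simulated data. log2 ratios of single libraries used a prior count of 2. Shares have exact Clopper-Pearson 95% intervals. Each library is taken as 1 tumor, and p-values measure only the spread between these samples. A gene's FPKM uses its deposited exon length, and gene positions were read from the exons listed in the tables. Named genes were the 10 members, the 5 highest and 5 lowest pathway genes, marker list sums, list genes at or under 3 counts in every library, Ptprc as a denominator and the 10 most alike genes. Ncr1, Jchain, Cd79b, Ms4a1, Trat1, Cd28, Tyrobp, Fcgr3, Bst2 and Flt3 were named beyond this rule, after their values were seen. The members and lists were chosen with earlier results of these data known.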

Additional observations from a re-analysis of the deposited data

How the results depend on the processing

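Of 114 log2 fold changes of the 10 genes recomputed under the alternatives, all were positive. The number of all genes called was 0 in edgeR, 1411 with DESeq2 and 0 to 8424 when 1 library was left out (3996 without TAK-931-1 and 8424 without TAK-931-2), and the number of the 10 called was 0, 10 and 0 to 10. With replicate number as a block, 144 genes and 6 of the 10 (Cd3e, Cd3g, Cd247, Cd8a, Zap70 and Lat) were called, beside 1.03% of all genes called as higher. These 6 are the members with under 10 counts in Vehicle-2, and Cd3d, Cd4, Cd8b1 and Lck, with at least 10 in every library, were not called. Same-numbered libraries come from different mice and their deviations were uncorrelated (r = 0.004 across 13669 genes), so the numbers do not pair them. Unadjusted calls as higher among the 10 were 0 with limma-voom (6.04% of all genes) and 4 to 10 with 1 library left out: 4 without Vehicle-2 (6.52%), 8 without Vehicle-1 (6.5%), 8 without TAK-931-1 (18.2%) and 10 without TAK-931-2 (31.1%). Requiring at least 10 counts in every library left 4 of the 10 to test, and all 4 kept an unadjusted p under 0.05 (12.3% of all genes) and lay above both vehicle libraries. The median log2 fold change of the 10 ran from 2.46 (without TAK-931-1) to 7.03 with 1 library left out. Counting Cd8b1 with Cd8a moved the CD8 share to 67.0%, 19.4%, 92.0% and 69.2% in Vehicle-1, Vehicle-2, TAK-931-1 and TAK-931-2. The mean Cd8a share was 49.8 percentage points higher in TAK-931 tumors, and 26.8 (without Vehicle-2) to 72.7 with 1 library left out. Low vehicle counts limit the fold changes of the 10, most for the 6 with under 10 counts in Vehicle-2.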
